A study of Drosophila melanogaster with 62 samples.

Results

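The transcripts described are those of p53 and 9 genes of DNA repair, nucleotide supply and the stress response in Drosophila: Ku80, Irbp, mre11, rad50, Gadd45, Xrp1, Corp, RnrL and RnrS. They were chosen by name from the deposited expression table, with no filter on level, and make up 10 of its 14659 genes. All 10 names were found. They came from RNA of the larval fat body, the tissue that stores fat, glycogen and storage proteins and secretes most proteins of the hemolymph.

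p53 is a transcription factor that is activated when DNA is damaged, and the fly genome holds a single member of its family. In irradiated fly embryos it is known to switch on genes that join broken DNA ends, genes that start apoptosis and genes of the stress response. Ku80 and Irbp (the fly Ku70) form the ring that binds a broken end before the ends are joined, and mre11 and rad50 form, with nbs, the complex that detects and trims it. RnrL and RnrS are the large and small subunits of ribonucleotide reductase, which makes deoxyribonucleotides. Tfb1, the gene whose knockdown is described first, encodes a core subunit of TFIIH, the complex that opens DNA both for transcription by RNA polymerase II and for nucleotide excision repair.

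Larvae were taken as they wandered, in the third instar, from food whose sucrose was 0.15 M, the control level, or higher. All groups carried UAS-Dcr2 on the X chromosome, a transgene that strengthens RNAi, and a GAL4 driver used for the fat body, cg-GAL4 (known to be active in hemocytes too) or r4-GAL4. The 61 libraries form 18 groups in 4 experiments, and each knockdown rests on 1 RNAi line of the Vienna stock centre (VDRC). The cg-GAL4 males, whose fat bodies were dissected, were crossed to the w1118 control stock or to Tfb1 RNAi line 12580 and reared at 0.15 M or 1.0 M (3 libraries per group). The cg-GAL4 females crossed to w1118 were reared at 0.15 M or 0.7 M (3 per group), and the r4-GAL4 females crossed to w1118 at 0.15 M, 0.3 M, 0.7 M or 1.0 M (3 per group). The r4-GAL4 females of the last experiment were crossed to control stock 60100 or to lines 103001 (p53 RNAi), 106097 (FOXO RNAi) or 106980 (Stat92E RNAi), and reared at 0.15 M or 0.7 M. Each of these groups has 4 libraries except p53 RNAi on the control diet, which has 3 where the labels list 4 samples. Its column headings also differ in form from those of the other groups of this experiment, so a separate origin cannot be told apart from the knockdown or the diet. Fat bodies of all females were floated, that is, sheared and separated by centrifugation. The labels do not say that libraries of a group came from separate cultures, so each p-value speaks only to how far these libraries scatter.

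Levels are given as scaled FPKM, a fragment count divided by transcript length and by library, and can be compared within an experiment only. Depth was low: the libraries held values above 0 for 6140 to 10069 genes, and an estimated 2.44 to 16.5 fragments lay behind each unit of scaled FPKM for a transcript 1 kb long. Many values of these genes therefore rest on a few fragments, and a gene listed at 0 may have been missed. Of 61 libraries, Corp was listed at 0 in 56, rad50 in 10, p53 in 7, Irbp in 7, Ku80 in 4, mre11 in 2 and RnrL in 1. Gadd45, Xrp1 and RnrS were above 0 in all of them. A change is the difference of group means of log2(scaled FPKM + 0.1), given ± its standard error, which understates the fold change of low genes, and it is called when limma's p, adjusted over all genes tested by the Benjamini-Hochberg method, is under 0.05. All 8 fat body marker genes, among them the storage proteins Lsp1alpha and Lsp2, were detected in each group, with summed levels of 1630 to 15000.

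In the males the targeted gene, Tfb1, was lower in the Tfb1 RNAi libraries, by less than the test required. At 0.15 M the control libraries held 1.05, 0.642 and 0.768 scaled FPKM and the RNAi libraries 0.546, 0.352 and 0.503. The groups did not overlap and the RNAi mean was 57% of the control mean, but the change of -0.69 ± 0.2 had an adjusted p of 0.052. It was called without control library 2 (-0.83, adjusted p = 0.038), with a pseudocount of 1 (-0.31, adjusted p = 0.048) and after rescaling by the median ratio (-0.71, adjusted p = 0.035). At 1.0 M the controls held 0.668, 0.518 and 0.638 and the RNAi libraries 0.457, 0.409 and 0.473. Here too the RNAi libraries were all lower, at 73.4% of the control mean, with a change of -0.37 ± 0.2 and an adjusted p of 0.32. For groups of 3 the exact permutation test cannot go below p = 0.1, and it gave that value at both diets. The Tfb1 values at 0.15 M stand for an estimated 4.8 to 8.5 fragments in controls and 1.7 to 6.5 in RNAi. Those at 1.0 M stand for 4.2 to 7.3 and 3.8 to 6.7, so the depth of this knockdown is poorly measured.

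In males of the Tfb1 RNAi line, p53 and the genes that bind and process broken DNA ends rose. At 0.15 M, 7 of the 10 genes rose, among them p53, Ku80, Irbp, rad50 and mre11, against 12.1% of all 10593 genes called in either direction and 5.14% called higher. At 1.0 M, 6 of the 10 rose, against 8.33% of all genes called and 5.22% called higher, and p53, Ku80, Irbp and rad50 were among them again. All 10 changes were positive at both diets, with a median of 2.07 at 0.15 M and 1.55 at 1.0 M, beside medians of 0.02 and 0.03 over all genes. The 6 at 1.0 M include Corp, which entered the test only through the RNAi libraries, since every male control library listed it at 0. Its call is given as a description and supports nothing.

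**Figure D1:**
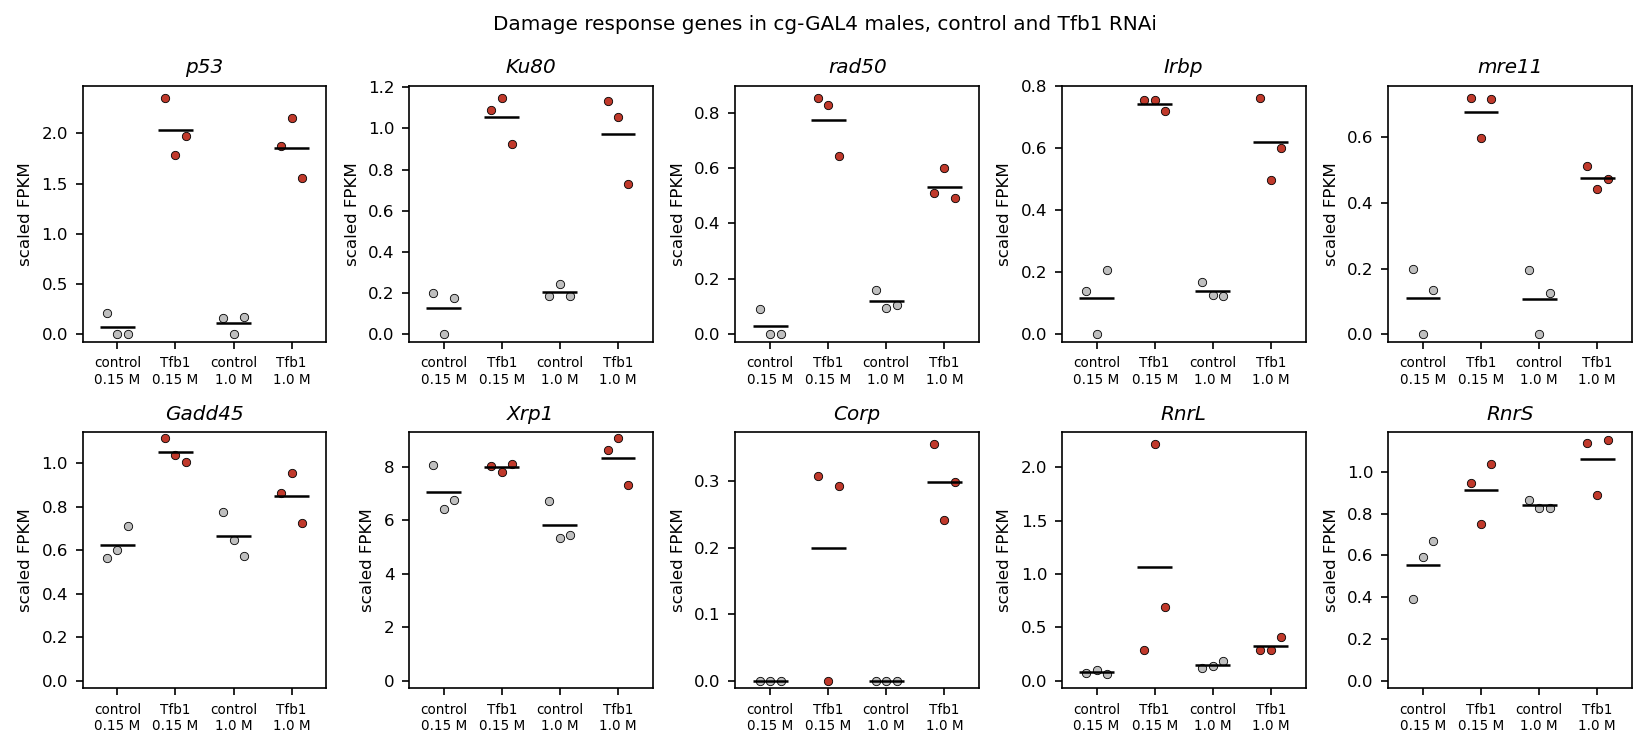
Scaled FPKM (linear axis from 0) of the 10 genes in each library of the cg-GAL4 males, with grey points for controls, red points for Tfb1 RNAi and a line at each group mean. The p53 panel shows all 6 RNAi libraries at 1.56 or more and all 6 control libraries at 0.215 or less, while the Xrp1 groups lie close together at 0.15 M.

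p53 had the largest fitted change of the 10 genes at both diets. At 0.15 M its control libraries held 0.215, 0 and 0 scaled FPKM, and the Tfb1 RNAi libraries held 2.35, 1.79 and 1.97. At 1.0 M the controls held 0.166, 0 and 0.171 and the RNAi libraries 1.87, 2.15 and 1.56. Every RNAi library was far above every control library, where the transcript was near or below the level of 1 to 2 fragments. The estimated fragments ran from 0 to 1.5 in controls and from 7.5 to 21.6 in RNAi libraries at 0.15 M, and from 0 to 1.7 and from 14.8 to 18.7 at 1.0 M. p53 rose by 3.86 ± 0.49 on the control diet (adjusted p = 0.00063). On 1.0 M sucrose the rise was 3.33 ± 0.49 (adjusted p = 0.0025). Leaving out any 1 of the 12 libraries kept both calls, with changes of 3.58 to 4.41 and 2.86 to 3.57. In the BDGP6 annotation 812 of the 2136 exon bases of p53 are shared with the antisense RNA asRNA:CR46089, and no source used here says that reads were counted by strand, so reads of the 2 genes cannot be told apart.

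The Ku pair rose at both diets. Ku80 stood at 0.201, 0 and 0.177 in controls at 0.15 M and at 1.09, 1.15 and 0.926 in Tfb1 RNAi, a change of 2.5 ± 0.38 (adjusted p = 0.0017). At 1.0 M it stood at 0.187, 0.247 and 0.186 against 1.13, 1.05 and 0.728, which is 4.7-fold in means and a change of 1.79 ± 0.38 (adjusted p = 0.017). The groups of Ku80 were well apart at both diets. Irbp held 0.14, 0 and 0.208 against 0.756, 0.755 and 0.72 at 0.15 M, a change of 2.11 ± 0.36 (adjusted p = 0.0034). At 1.0 M it held 0.168, 0.128 and 0.125 against 0.762, 0.498 and 0.599, which is 4.41-fold and a change of 1.57 ± 0.36 (adjusted p = 0.024). The lowest RNAi library of Irbp thus lay above the highest control library at either diet. At 0.15 M both calls were kept with any library left out. At 1.0 M the Ku80 call was lost without control library 1 or 3 or RNAi library 1 or 2 (1.68 to 1.75, adjusted p 0.051 to 0.065), and the Irbp call without control library 1, 2 or 3 or RNAi library 1 or 2 (1.43 to 1.7, adjusted p 0.051 to 0.093).

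The end-processing genes moved with them. rad50 was at 0.0902, 0 and 0 in controls at 0.15 M and at 0.853, 0.827 and 0.643 in Tfb1 RNAi, a change of 2.81 ± 0.27 (adjusted p = 9.4e-05). At 1.0 M it was at 0.161, 0.0947 and 0.107 against 0.508, 0.599 and 0.49, which is 4.41-fold and a change of 1.53 ± 0.27 (adjusted p = 0.0061). Both rad50 calls held with any library left out. mre11 was at 0.198, 0 and 0.134 against 0.72, 0.598 and 0.716 at 0.15 M, a change of 2.02 ± 0.46 (adjusted p = 0.016). At 1.0 M it was at 0.196, 0 and 0.126 against 0.512, 0.443 and 0.473, with a change of 1.61 ± 0.46 that was not called (adjusted p = 0.063). The mre11 groups did not overlap at either diet, and its calls turned on single libraries. The call at 0.15 M was lost without RNAi library 1 (1.98, adjusted p = 0.057) or 3 (1.99, adjusted p = 0.055), and the value at 1.0 M was called without 0.15 M control library 2 (1.61, adjusted p = 0.028), without 1.0 M control library 1 (1.94, adjusted p = 0.046) and with a pseudocount of 1 (0.42, adjusted p = 0.011).

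Among the stress genes, Gadd45, an activator of stress kinase signalling in flies, was called at 0.15 M and not at 1.0 M. Its control libraries held 0.565, 0.6 and 0.711 and its Tfb1 RNAi libraries 1.11, 1.04 and 1.0, which is 1.68-fold and a change of 0.67 ± 0.15 (adjusted p = 0.014). The call was lost without control library 1 (0.61, adjusted p = 0.053) or RNAi library 1 (0.63, adjusted p = 0.058). At 1.0 M the controls at 0.776, 0.649 and 0.574 overlapped the RNAi libraries at 0.865, 0.953 and 0.726, with a change of 0.31 ± 0.15 (adjusted p = 0.25). The difference between the 2 effects, -0.36 ± 0.21, was not called (adjusted p = 0.5).

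Xrp1, a bZIP transcription factor of the stress response and of cell competition, was the most abundant of the 10 genes and had the smallest change at 0.15 M. At 0.15 M the controls held 8.04, 6.42 and 6.75 and the RNAi libraries 8.02, 7.8 and 8.1, with overlapping groups and a change of 0.18 ± 0.12 (adjusted p = 0.44). At 1.0 M the controls held 6.71, 5.32 and 5.44 and the RNAi libraries 8.61, 9.09 and 7.32. These did not overlap, and Xrp1 rose 1.43-fold, a change of 0.51 ± 0.12 (adjusted p = 0.03). That call was lost without 0.15 M RNAi library 1, 1.0 M control library 2 or 3, or 1.0 M RNAi library 1 or 2 (0.45 to 0.51, adjusted p 0.052 to 0.11).

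Corp, known in flies as a p53 target that restrains p53, was detected in 5 of the 61 libraries, all of them Tfb1 RNAi. At 0.15 M it was listed at 0 in the 3 control libraries and stood at 0.307, 0 and 0.292 in RNAi (1.33 ± 0.45, adjusted p = 0.093). Without RNAi library 2, the one at 0, the change was 2.0, against controls that were all at 0, so its call there supports nothing. That library was the shallowest of the 61, at an estimated 2.44 fragments per unit of scaled FPKM for a 1 kb transcript, so Corp may have been missed in it. At 1.0 M it was again listed at 0 in the 3 controls and stood at 0.355, 0.242 and 0.299 in RNAi, a called change of 1.99 ± 0.45 (adjusted p = 0.023). Since Corp entered the test only through RNAi libraries, this call is a description and supports nothing. No fold is given against libraries at 0, and the call was lost without control library 1, 2 or 3 or RNAi library 1 or 2 (1.89 to 2.09, adjusted p 0.057 to 0.08).

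Of the ribonucleotide reductase subunits, RnrL rose at 0.15 M, unevenly. Its controls held 0.0747, 0.0986 and 0.0616 and its Tfb1 RNAi libraries 0.291, 2.22 and 0.688, a change of 2.33 ± 0.51 (adjusted p = 0.015). The groups did not overlap, but RNAi library 2 stood far above the other two and the change without it was 1.64. The call was lost without control library 3 (2.26, adjusted p = 0.052) and with a pseudocount of 1 (0.83, adjusted p = 0.065). At 1.0 M the controls at 0.116, 0.135 and 0.183 lay below the RNAi libraries at 0.285, 0.287 and 0.413, and the change of 0.8 ± 0.51 was not called (adjusted p = 0.42). In 17 of the 61 libraries the value of RnrL was above 0 but under an estimated 0.7 of a fragment, which a whole fragment cannot give, so its low values are uncertain. RnrS held 0.394, 0.594 and 0.671 in controls at 0.15 M and 0.946, 0.748 and 1.04 in RNAi. No library overlapped, and the change of 0.65 ± 0.19 was not called (adjusted p = 0.054) unless control library 3 (0.78, adjusted p = 0.042) or RNAi library 2 (0.77, adjusted p = 0.037) was left out. At 1.0 M RnrS held 0.865, 0.826 and 0.826 against 1.14, 0.89 and 1.15, with a change of 0.3 ± 0.19 (adjusted p = 0.42).

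**Figure D2:**
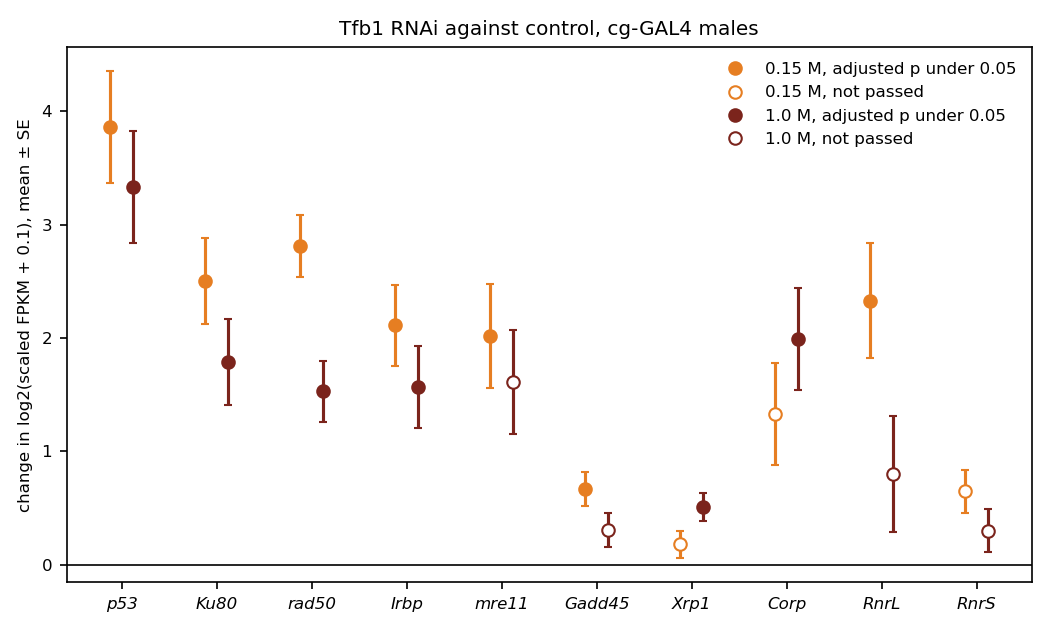
Change in log2(scaled FPKM + 0.1) between Tfb1 RNAi and control males for each of the 10 genes at 0.15 M and 1.0 M, with bars of 1 standard error and filled points where the adjusted p is under 0.05. p53 lies highest at both diets (3.86 and 3.33), and Xrp1 has the smallest change at 0.15 M (0.18).

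The diet comparisons in males called none of these genes. None of the 10 was called between 1.0 M and 0.15 M in controls, where 8.44% of all genes were called, nor within Tfb1 RNAi, where 3.66% were. The smallest adjusted p in controls belonged to rad50 (0.82 ± 0.27, adjusted p = 0.097). None of the 10 differed between diets in its response to Tfb1 RNAi, a test that called 1.67% of all genes; the changes were nearest to the threshold for rad50, which was -1.28 ± 0.38 from 0.15 M to 1.0 M (adjusted p = 0.17).

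Other genes of DNA repair rose beside them, though most members of each list were not called. The lists were assembled with results of these data known. The apoptosis activators rpr, skl and grim were at 0 in every library of all 18 groups, so their zeros are not particular to the males. Wrinkled (hid), of the same region, was not called at either diet. It was at 0 in controls and at 0 to 0.06 in Tfb1 RNAi at 0.15 M. At 1.0 M it was at 0 to 0.0853 in controls and at 0.113 to 0.131 in Tfb1 RNAi. The counts that follow stand beside 5.14% of all genes called higher at 0.15 M and 5.22% at 1.0 M, and a count of 1 in a list of this size is near that background. Of 17 genes of damage sensing and checkpoints, 4 rose at 0.15 M and 3 at 1.0 M, with medians of 0.10 and 0.17 over the 15 that were above 0. RpA-70, the large subunit of the protein that coats single-stranded DNA, stood at a mean of 0.293 ± 0.13 (SD, n = 3) in controls and 5.57 ± 0.69 in RNAi at 0.15 M, a change of 3.89 ± 0.23 (adjusted p = 4.6e-06). Its mean at 1.0 M went from 0.394 ± 0.076 to 4.15 ± 0.49, a change of 3.11 ± 0.23 (adjusted p = 2.7e-05). RpA-70 thus changed by about as much as p53. nbs, the partner of mre11 and rad50, rose by 1.89 ± 0.26 (adjusted p = 0.00092) on the control diet and by 1.2 ± 0.26 (adjusted p = 0.018) on the high one. CG15220, annotated as RPA3, the small subunit of that protein, rose by 3.77 ± 0.57 at 0.15 M (adjusted p = 0.0017), and tefu, the fly ATM kinase, was called at 1.0 M with 0.85 ± 0.17 (adjusted p = 0.013).

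Among 20 genes of double-strand break repair, CG3448, to which the reference tables give no other name, and Pms2, a mismatch repair factor, rose at both diets, and none fell. CG3448 changed by 2.56 ± 0.34 (adjusted p = 0.00071) and 1.49 ± 0.34 (adjusted p = 0.023), and Pms2 by 2.43 ± 0.41 (adjusted p = 0.0035) and 2.79 ± 0.41 (adjusted p = 0.0025). The median over the 15 genes above 0 was 0.25 at 0.15 M and 0.30 at 1.0 M. Of 17 genes of nucleotide excision repair and TFIIH, 4 rose at each diet, with medians of 0.52 and 0.57 over the 16 above 0. They include mus210, the fly XPC that recognises damage (1.78 ± 0.14, adjusted p = 3.2e-05, and 1.34 ± 0.14, adjusted p = 0.0003). The nuclease gene mus201 rose by 1.69 ± 0.18 (adjusted p = 0.00018) and 1.1 ± 0.18 (adjusted p = 0.0041), and pic, the fly DDB1, by 1.5 ± 0.14 (adjusted p = 9.4e-05) and 1.08 ± 0.14 (adjusted p = 0.0011).

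Base excision repair genes numbered 3 of 7 called higher at 0.15 M and 1 of 7 at 1.0 M. The scaffold gene XRCC1 rose by 1.92 ± 0.33 at 0.15 M (adjusted p = 0.0036), Parp by 0.8 ± 0.23 (adjusted p = 0.046) and the ligase gene lig3 by 0.69 ± 0.18 (adjusted p = 0.035). lig3 was also called at 1.0 M (1.06 ± 0.18, adjusted p = 0.0057). Of 4 other genes of nucleotide supply, the deoxyribonucleoside kinase gene dnk was called higher at 0.15 M (1.87 ± 0.5, adjusted p = 0.039) and none at 1.0 M. Of 14 apoptosis genes, Traf4 was called at 0.15 M, where it was listed at 0 in the 3 controls and stood at 0.549 to 0.66 in RNAi, and no gene was called at 1.0 M; 1 of 14 is near the background. Of 16 genes of S phase, when DNA is replicated, none was called at either diet, with medians of 0.12 and 0.01 over the 14 above 0.

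**Figure D3:**
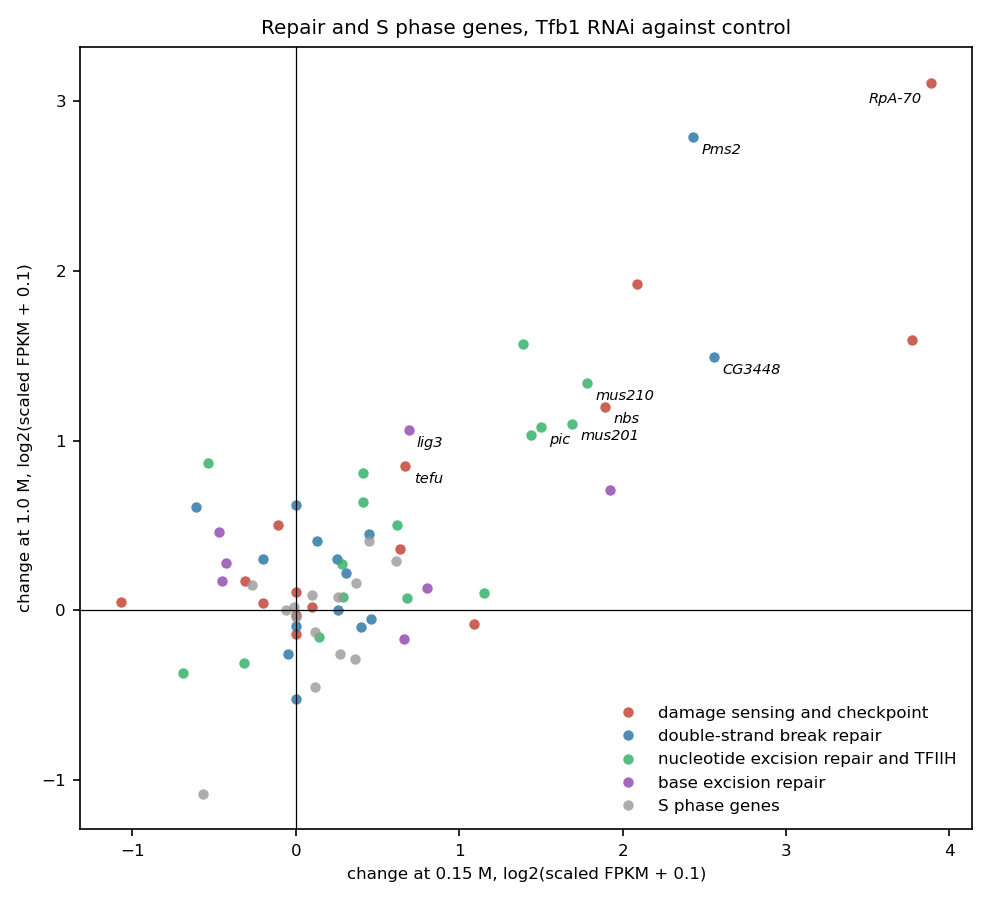
Change in log2(scaled FPKM + 0.1) by Tfb1 RNAi in males at 0.15 M (horizontal) and 1.0 M (vertical) for the tested genes of the damage sensing list, 3 repair lists and the S phase list, 1 point per gene, with names for those called at both diets. RpA-70 lies farthest out (3.89 and 3.11), and no S phase gene was called.

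Not all stress genes rose. Thor, the translation inhibitor 4E-BP, fell by 3.14 at 0.15 M, from 154 ± 14 to 17.3 ± 0.87 scaled FPKM (SD, n = 3; adjusted p = 5.7e-07). Its fall at 1.0 M was by 2.28, from libraries of 97.5 to 106 to libraries of 17.1 to 23.4 (adjusted p = 3.7e-06). GstD1, a glutathione transferase of the oxidative stress response, fell by 2.06 at 0.15 M (adjusted p = 4e-05). Of the 10 partners of the integrated and proteotoxic stress responses, 1 rose and 2 fell at 0.15 M, and 3 rose and 1 fell at 1.0 M. The genes that rose were GstE6 at both diets (0.91 and 1.42) and, at 1.0 M, Hsp22 (1.04) and PEK (0.95).

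Levels of tissue marker genes moved with Tfb1 RNAi too, and their part in these results was not tested. In bulk RNA, fewer cells of a type and less RNA per cell cannot be told apart. Of the 8 fat body markers, 6 were lower in RNAi at each diet, and their summed level went from 9370 to 11100 in controls to 4620 to 5340 in RNAi at 0.15 M and from 2830 to 4450 to 1630 to 2150 at 1.0 M. The sum of 8 hemocyte markers was 6.21 to 6.57 in controls and 6.56 to 6.89 in RNAi at 0.15 M (1 of 8 called, lower), and 4.27 to 4.69 against 7.24 to 9.74 at 1.0 M (1 of 8 called, higher). The sum of 7 imaginal disc markers was 0.756 to 1.15 against 0.807 to 0.981 at 0.15 M and 1.14 to 1.34 against 1.5 to 1.73 at 1.0 M, with none called. Salivary gland markers were lower in 1 and 2 of 6 genes, and no gut or muscle marker was called.

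In p53 RNAi the p53 transcript was lower than in controls, and it was near the limit of detection in both. At 0.15 M the r4-GAL4 controls held 0.0982, 0.122, 0.162 and 0.123 scaled FPKM of p53 and the p53 RNAi libraries 0.0962, 0.0975 and 0.0775. The RNAi libraries were all lower, at 71.6% of the control mean, with a change of -0.24 ± 0.16 that was not called (adjusted p = 0.53, exact permutation p = 0.057). At 0.7 M the controls held 0.237, 0.233, 0.26 and 0.172 and the RNAi libraries 0.161, 0.142, 0.164 and 0.0939, which is 62.2% and a change of -0.44 ± 0.15 (adjusted p = 0.1). The groups again did not overlap, and the exact permutation test gave p = 0.029, the smallest it can give. These values stand for an estimated 1.4 to 4.9 fragments per library, so the depth of the knockdown is poorly measured.

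None of the 9 genes tested, p53 included, was called in p53 RNAi. At 0.15 M 0.741% of all 9847 genes were called (73 genes) and at 0.7 M 3.34% (329 genes), and the difference of the effect between diets called 0.0508% (5 genes) and none of the 9. The medians of the 9 changes were -0.02 and -0.14, beside -0.02 and 0.00 over all genes. Ku80, Irbp, mre11 and rad50 ranged from 0.0176 to 0.246 over the p53 RNAi libraries of both diets and from 0.0209 to 0.244 over the controls. Corp was listed at 0 in all 31 libraries of the experiment and was not tested.

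Beside p53 itself, Xrp1 and RnrS came nearest to a call in p53 RNAi at 0.7 M, in opposite directions. At 0.7 M Xrp1 held 3.4, 1.07, 2.52 and 5.08 in controls and 1.4, 1.04, 1.41 and 1.18 in p53 RNAi, a change of -1.02 ± 0.34 (adjusted p = 0.1). The lowest control overlapped the RNAi libraries, and without that library, number 2, the change was -1.43 (adjusted p = 0.0052); with genes of a mean of at least 1 only, it was called too (adjusted p = 0.049). RnrS held 0.454, 0.439, 0.331 and 0.435 in controls and 0.589, 0.704, 0.668 and 0.465 in p53 RNAi. Here the RNAi libraries were all higher, by 0.45 ± 0.15 (adjusted p = 0.1, exact permutation p = 0.029), and rescaling by the median ratio brought the call (0.51, adjusted p = 0.041). At 0.15 M the end-joining ligase gene Lig4 was called, as 1 of 20 genes of double-strand break repair (-1.7 ± 0.31, adjusted p = 0.0053). No gene of the damage sensing, excision repair, base excision repair or nucleotide supply lists was called there. At 0.7 M the single-strand binding subunit RPA2 (0.56 ± 0.12, adjusted p = 0.01), the excision repair gene Xpac (0.64 ± 0.15, adjusted p = 0.021) and dUTPase (0.73 ± 0.19, adjusted p = 0.028) rose, which were 1 of 17, 1 of 17 and 1 of 4 on their lists. With 0.741% and 3.34% of all genes called, counts of 1 do not set any of these lists apart. The summed fat body markers were 9370 to 11600 in p53 RNAi and 13900 to 15000 in controls at 0.15 M, and 6760 to 8110 and 9440 to 13100 at 0.7 M, where 4 of the 8 were called lower, and their part in these values was not tested.

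FOXO RNAi on 0.7 M sucrose raised p53. The controls held 0.237, 0.233, 0.26 and 0.172 and the FOXO RNAi libraries 0.444, 0.638, 0.443 and 0.492. Every RNAi library lay above every control, a 2.23-fold higher mean and a change of 0.89 ± 0.15 (adjusted p = 9.8e-05, exact permutation p = 0.029). The call was kept with any of the 31 libraries left out (0.79 to 0.94). p53 was the only one of the 9 genes called, against 12.5% of all genes. At 0.15 M none was, against 7.61%, and p53 stood at 0.0982, 0.122, 0.162 and 0.123 in controls and 0.164, 0.142, 0.124 and 0.181 in FOXO RNAi, with overlapping groups (0.16 ± 0.15, adjusted p = 0.56). The effect of FOXO RNAi on p53 was larger at 0.7 M by 0.73 ± 0.21 (adjusted p = 0.036). That difference was lost with any 1 of 8 of the 31 libraries left out: control library 2, 3 or 4 or RNAi library 1 or 3 at 0.15 M, and control library 2 or 4 or RNAi library 2 at 0.7 M (0.63 to 0.75, adjusted p 0.054 to 0.083).

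**Figure D4:**
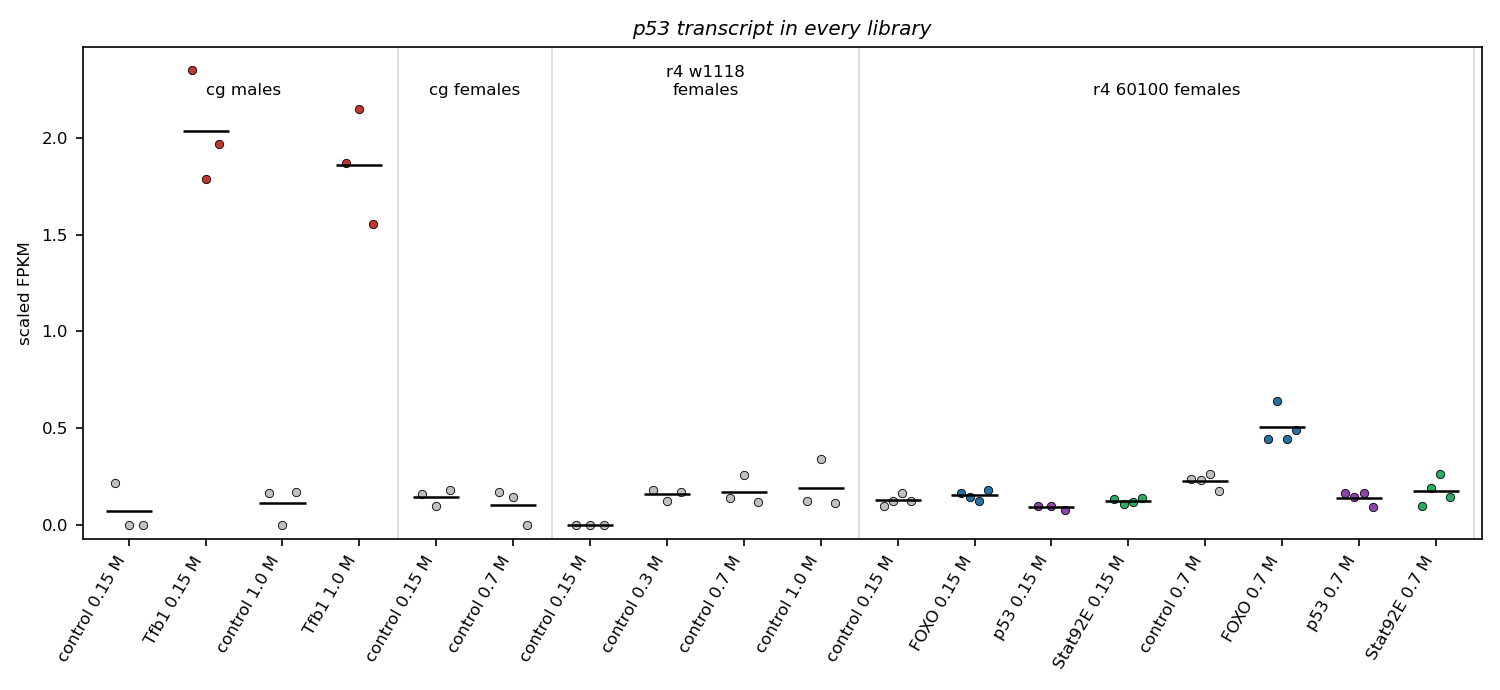
Scaled FPKM of p53 in each of the 61 libraries, by group, with a line at each group mean and vertical lines between the 4 experiments, whose scales are separate. The Tfb1 RNAi males lie at 1.56 to 2.35, the FOXO RNAi females on 0.7 M at 0.443 to 0.638, and no other library exceeds 0.341.

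Xrp1 was the other gene whose response to FOXO RNAi differed between diets, a test that called 6.81% of all genes. At 0.15 M its controls held 5.04, 7.59, 4.18 and 6.22 and the FOXO RNAi libraries 2.27, 5.37, 2.15 and 2.95. Most RNAi libraries were lower, with an overlap (-0.9 ± 0.34, adjusted p = 0.11). At 0.7 M the RNAi libraries held 4.93, 8.22, 4.94 and 2.45, mostly above the controls at 3.4, 1.07, 2.52 and 5.08 (0.82 ± 0.34, adjusted p = 0.13). The difference between the effects was 1.72 ± 0.49 (adjusted p = 0.032), with neither effect called alone. It was lost with any 1 of 10 libraries left out: control library 2 or 4 or RNAi library 1, 3 or 4 at 0.15 M, and control library 2 or 3 or RNAi library 1, 2 or 3 at 0.7 M (1.31 to 1.71, adjusted p 0.052 to 0.08). FOXO RNAi at 0.7 M also raised the apoptosis genes Nc, the initiator caspase Dronc (1.56 ± 0.18, adjusted p = 3.1e-07), and Wrinkled, known as hid (0.74 ± 0.11, adjusted p = 2.9e-05), which were 2 of 14 on their list, a share near the 12.5% of all genes called. The checkpoint kinase gene grp fell by 0.78 (adjusted p = 0.016). The summed fat body markers were 6490 to 7820 in FOXO RNAi at 0.7 M and 9440 to 13100 in controls (5 of 8 called lower and 1 higher), and the gut markers 34.3 to 62.9 against 45.1 to 112, and their part in these changes was not tested.

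Stat92E RNAi called none of the 9 genes at 0.15 M (3.6% of all genes called), at 0.7 M (3.93%) or in the difference between diets (0.142%). Its nearest value was RnrS at 0.7 M, at 0.654, 0.648, 0.797 and 0.448 in RNAi and 0.454, 0.439, 0.331 and 0.435 in controls. One pair of libraries overlapped, and the change of 0.5 ± 0.15 had an adjusted p of 0.061. It was called after rescaling by the median ratio (0.51, adjusted p = 0.038) and without 0.15 M FOXO RNAi library 3, 0.7 M FOXO RNAi library 2, 0.7 M control library 2 or 0.7 M Stat92E RNAi library 4 (0.5 to 0.64, adjusted p 0.018 to 0.05). At 0.15 M Xrp1 and Gadd45 were lower in all 4 Stat92E RNAi libraries than in all controls, with changes of -0.75 ± 0.34 (adjusted p = 0.19) and -0.6 ± 0.3 (adjusted p = 0.23).

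In r4-GAL4 females of the 60100 cross, high sugar moved p53 and RnrS in opposite directions. The comparisons of the RNAi lines above and those of diet below share their control libraries. In controls 3 of the 9 genes were called between 0.7 M and 0.15 M, against 25.8% of all genes, a share too near the background to set the genes apart as a group. p53 rose from 0.0982, 0.122, 0.162 and 0.123 to 0.237, 0.233, 0.26 and 0.172, a 1.79-fold higher mean and a change of 0.53 ± 0.15 (adjusted p = 0.013). RnrS fell from 0.848, 0.801, 0.762 and 0.778 to 0.454, 0.439, 0.331 and 0.435, to 0.521 of its level, a change of -0.81 ± 0.15 (adjusted p = 0.00086). Neither gene's diets overlapped, the exact permutation p was 0.029 for both, and both calls were kept with any library left out. Xrp1 fell by 1.07 ± 0.34 (adjusted p = 0.025) from 5.04, 7.59, 4.18 and 6.22 to 3.4, 1.07, 2.52 and 5.08. These groups overlapped, and the call was lost without 0.15 M library 2 (-0.93, adjusted p = 0.081) or 4 (-1.02, adjusted p = 0.057) or 0.7 M library 2 (-0.66, adjusted p = 0.14) or 3 (-1.05, adjusted p = 0.061). Markers of other tissues moved with the diet in these controls, and their part was not tested: 7 of 8 muscle markers were higher at 0.7 M (sums of 8.34 to 15.2 and 19.3 to 68.2), 6 of 7 disc markers lower (0.783 to 1.49 and 0.202 to 0.478) and 4 of 8 fat body markers lower. Of 16 S phase genes, 4 fell, a share near the 25.8% of all genes called.

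**Figure D5:**
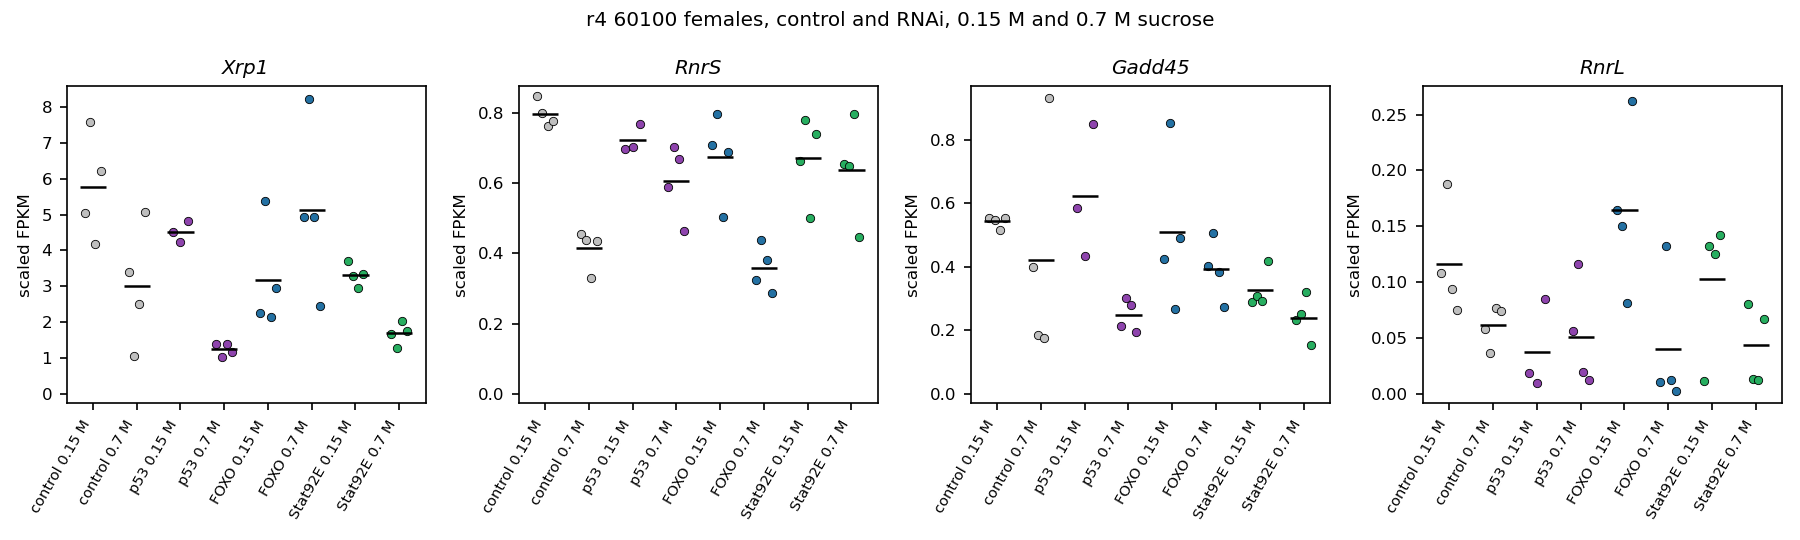
Scaled FPKM of Xrp1, RnrS, Gadd45 and RnrL in each library of the r4-GAL4 females of the 60100 cross, by genotype and sucrose level, with a line at each group mean. RnrS at 0.7 M lies at 0.331 to 0.454 in controls and 0.287 to 0.438 in FOXO RNAi, below the 0.15 M libraries of the same genotype, and the p53 RNAi libraries of Xrp1 at 0.7 M lie at 1.04 to 1.41.

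Within p53 RNAi, 2 of the 9 genes fell with sugar, where 25.8% of all genes were called. Xrp1 went from 4.52, 4.23 and 4.81 at 0.15 M to 1.4, 1.04, 1.41 and 1.18 at 0.7 M, to 0.278 of its level, a change of -1.77 ± 0.37 (adjusted p = 0.0019). This was the widest gap of Xrp1 between diets, it held with any library left out, and it did not differ from that in controls by a called amount (-0.71 ± 0.51, adjusted p = 1.0). Gadd45 went from 0.586, 0.436 and 0.851 to 0.213, 0.304, 0.279 and 0.196, a change of -1.03 ± 0.33 (adjusted p = 0.025). Its diets did not overlap, and the call was lost without 0.15 M RNAi library 1 (-1.05, adjusted p = 0.059) or 3 (-0.81, adjusted p = 0.16) or 0.7 M RNAi library 1 (-0.98, adjusted p = 0.055) or 4 (-0.96, adjusted p = 0.067). p53 itself changed by 0.33 ± 0.16 with sugar in this genotype (adjusted p = 0.13). Muscle markers were higher at 0.7 M in 6 of 8 genes (sums of 11.5 to 13.0 and 31.9 to 52.8), disc markers lower in 3 of 7 (0.567 to 0.998 and 0.166 to 0.383) and fat body markers lower in 4 of 8 (9370 to 11600 and 6760 to 8110), and their part was not tested.

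Within FOXO RNAi, 4 of the 9 genes were called between diets, against 25.4% of all genes. p53 rose from 0.164, 0.142, 0.124 and 0.181 to 0.444, 0.638, 0.443 and 0.492, a 3.3-fold higher mean and a change of 1.25 ± 0.15 (adjusted p = 7.1e-07). RnrS fell from 0.709, 0.797, 0.503 and 0.688 to 0.325, 0.438, 0.38 and 0.287 (-0.76 ± 0.15, adjusted p = 0.00058). Both were clear of overlap and held with any library left out. mre11 fell from 0.192, 0.205, 0.225 and 0.19 to 0.139, 0.138, 0.0886 and 0.126 (-0.45 ± 0.14, adjusted p = 0.021), a call lost after rescaling by the median ratio (-0.36, adjusted p = 0.068) and without FOXO RNAi library 3 at 0.15 M (-0.41, adjusted p = 0.055) or at 0.7 M (-0.37, adjusted p = 0.079). RnrL was called lower (-0.96 ± 0.28, adjusted p = 0.014), from 0.164, 0.15, 0.0816 and 0.263 to 0.0107, 0.133, 0.0127 and 0.00317, with an overlap and with some values under the level of 1 fragment, and was lost without 0.15 M library 4 (-0.8, adjusted p = 0.059). So the 2 subunit genes of ribonucleotide reductase were both lower, and of the end-binding genes mre11 alone was called. Of the other lists, 3 of 17 genes of damage sensing, 6 of 20 of double-strand break repair, 2 of 17 of excision repair and TFIIH, 1 of 7 of base excision repair and 6 of 16 of S phase fell, and none of these rose. Among them were spel1, a mismatch repair gene (-0.65 ± 0.17, adjusted p = 0.0056), and Pms2 (-0.56 ± 0.15, adjusted p = 0.0086). Over all genes, too, more were called lower than higher between these diets, a balance that turned round after rescaling by the median ratio. With 25.4% of all genes called, the counts and their direction do not set these lists apart. Muscle markers were higher at 0.7 M in 8 of 8 genes (sums of 4.94 to 14.8 and 27.5 to 53.9) and disc markers lower in 3 of 7 (0.419 to 1.3 and 0.167 to 0.738), and their part was not tested.

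Within Stat92E RNAi none of the 9 was called between diets, against 17.9% of all genes. Xrp1 went from 3.7, 3.28, 2.94 and 3.36 to 1.67, 1.28, 2.03 and 1.77. These did not overlap (exact permutation p = 0.029), but the change of -0.95 ± 0.34 had an adjusted p of 0.056. It was called among genes with a mean of at least 1 (adjusted p = 0.031) and without 0.15 M FOXO RNAi library 2, or 0.7 M control library 2 or 4 or FOXO RNAi library 2 or 4 (adjusted p 0.021 to 0.04). RnrS was at 0.663, 0.78, 0.502 and 0.74 and then at 0.654, 0.648, 0.797 and 0.448, a change of -0.07 ± 0.15 (adjusted p = 0.82). Muscle markers were higher at 0.7 M in 5 of 8 genes, where each summed level lay above the highest of 28.7 on the control diet, and fat body markers lower in 4 of 8 (12300 to 12700 and 7750 to 10400), and their part was not tested.

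The females without RNAi of the other 2 experiments gave few calls. In cg-GAL4 females 1 of 9 genes was called between 0.7 M and 0.15 M, against 17.2% of all 8318 genes: RnrS fell from 0.968, 0.828 and 0.902 to 0.604, 0.473 and 0.539 (-0.65 ± 0.13, adjusted p = 0.024). The diets did not overlap. The call was lost without 0.15 M library 1, 2 or 3 or 0.7 M library 2 or 3 (-0.7 to -0.57, adjusted p 0.058 to 0.072). Gadd45 held 1.96, 3.03 and 2.1 and then 0.911, 1.95 and 1.33, without overlap and without a call (-0.75 ± 0.31, adjusted p = 0.17). Fat body markers were higher in 4 of 8 genes on high sugar (sums of 5290 to 7190 and 10500 to 12300) and hemocyte markers lower in 7 of 8 (15.5 to 20.9 and 3.46 to 4.78), and their part was not tested. In these females Gadd45 was second to Xrp1 in level, at a mean of 2.36 ± 0.58 at 0.15 M. p53 held 0.158, 0.0972 and 0.178 and then 0.17, 0.143 and 0 (-0.37 ± 0.42, adjusted p = 0.57).

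In r4-GAL4 females of the w1118 cross, p53 was listed at 0 in the 3 libraries at 0.15 M. On 0.3 M it stood at 0.179, 0.125 and 0.169. The 0.7 M libraries held 0.138, 0.258 and 0.118, and the 1.0 M libraries 0.123, 0.341 and 0.111. All 9 high-sugar libraries were thus above the 3 at 0, by an estimated 1.0 to 3.4 fragments each. With the control diet at 0, p53 entered the test only through the high-sugar libraries, so its calls are given as a description and support nothing. p53 was the 1 of 9 genes called on 0.3 M sucrose (1.36 ± 0.29, adjusted p = 0.031), where 4.63% of all 8332 genes were called. It was also the 1 called on 0.7 M (1.4 ± 0.29, adjusted p = 0.017), against 9.33% of all genes, and on 1.0 M (1.46 ± 0.29, adjusted p = 0.013), against 9.95%. With a pseudocount of 1 no call was left, at 0.21 (adjusted p = 0.11), 0.23 (adjusted p = 0.071) and 0.25 (adjusted p = 0.053). The 0.3 M call was also lost without 0.15 M library 1, 2 or 3 or 0.3 M library 2 or 3 (1.32 to 1.45, adjusted p 0.058 to 0.11), and the 0.7 M call without 0.7 M library 2 (1.19, adjusted p = 0.065). Tissue markers moved with the diet too, and their part was not tested. Gut markers summed to 49.3 to 135 on the control diet, 17.1 to 48.1 on 0.3 M, 2.7 to 5.03 on 0.7 M and 2.97 to 6.09 on 1.0 M, with 1, 5 and 5 of 8 called lower. Disc markers summed to 0.91 to 1.18 on the control diet and to 0.261 to 0.72 over the 3 others, with 3, 2 and 3 of 7 lower, and muscle markers to 4.14 to 7.69 and 13.5 to 18.1 on the control diet and 0.3 M (1 of 8 higher). None of the 9 genes was called for a linear trend with sucrose, against 4.48% of all genes, and p53 had 1.3 ± 0.47 per 1 M (adjusted p = 0.16). Xrp1 ranged widely within a diet, and was not called. Its libraries held 2.81, 5.53 and 2.34 on the control diet, then 1.96, 1.1 and 1.45 on 0.3 M, 2.96, 1.83 and 1.12 on 0.7 M, and 6.87, 2.34 and 3.97 on 1.0 M.

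Over the 23 comparisons, 29 of 212 values of these genes were called. They were 13 of 50 in cg-GAL4 males, 1 of 9 in cg-GAL4 females, 3 of 36 in r4-GAL4 w1118 females and 12 of 117 in r4-GAL4 60100 females. The shares of all genes called per comparison ran from 1.67% to 12.1% in males and from 0.0508% to 25.8% in the 60100 cross. They were 17.2% in cg-GAL4 females and 4.48% to 9.95% in w1118 females. Beside these shares the female counts do not set the genes apart. Of the calls, that of Corp in males and the 3 of p53 in w1118 females support nothing. Ku80, rad50 and Irbp were called in no comparison but Tfb1 RNAi against control, and effects were not compared across experiments. The order of levels was headed by Xrp1 in each of the 18 groups, with group means of 1.26 to 8.34. In control males at 0.15 M Xrp1 (7.07 ± 0.86) was followed by Gadd45 (0.565 to 0.711) and RnrS (0.394 to 0.671), which overlapped each other, and then by the remaining genes at 0.215 or less. In Tfb1 RNAi males at 0.15 M p53 was next below Xrp1 in mean level (2.04 ± 0.29, n = 3). RnrL, Ku80 and Gadd45 followed with means of 1.06, 1.05 and 1.05, and overlapped each other. RnrL, at 0.291 to 2.22, also overlapped p53, at 1.79 to 2.35.

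Genes whose pattern was most like that of p53 over the 61 libraries, by Pearson correlation of log2 levels centred within each experiment among 2495 genes with a mean of at least 1, were CG10102 (r = 0.9), Arc1 (r = 0.89), which encodes a capsid-forming protein, and CG2064 (r = 0.87). In males CG10102 had means of 2.21 in controls and 133 in Tfb1 RNAi at 0.15 M, and 1.69 and 63.5 at 1.0 M. Arc1 went from 5.82 to 377 and from 4.01 to 195. The likeness rests on libraries that share their scaling and on the male groups, which lie far apart. For Xrp1 the 3 nearest were CG8678 (0.89), the endosomal sorting gene Stam (0.89) and the sodium pump gene Atpalpha (0.86), and for Gadd45 the microtubule-end gene Eb1 (0.77), dNAT1 (0.76) and CG18811 (0.75).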

How the data were processed

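RNA-seq of larval fat body was analysed in 61 libraries of 18 groups from 62 labelled samples. The deposited table holds FPKM values; the submitters' processing notes name TopHat 1.3.2, Bowtie 0.12.7, Cufflinks 1.1.0 and the dm3 genome. Within an experiment all libraries have an equal number of genes at 1 or more (1 library differs by 1 gene), so the deposited FPKM appear scaled to a common rank, which the labels do not mention. Columns were matched to samples by title (18) or to groups only (43), where library numbers are names in column order. For males the headings read r4 or D2 but the labels cg-GAL4; the labels were followed. Fragments behind a value were estimated from the lower edge (percentile 10) of FPKM multiplied by transcript length, library by library.

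Each experiment was fitted alone with limma 3.58.1 in R 4.3.3 (empirical Bayes with a mean-variance trend, a mean per group) on log2(scaled FPKM + 0.1), over genes above 0 in at least 1 of its libraries. Two-sided p-values were adjusted over all genes tested (Benjamini-Hochberg, threshold 0.05). The fit was also run on simulated data with normal scatter of log2 values. No fragments were drawn there, so that run says nothing on genes that rest on few fragments. Exact two-sided permutation tests used scipy 1.17.1 in Python 3.11.15. Alternatives were a pseudocount of 1, genes with a mean of at least 1 only, rescaling by the median ratio, the replicate number as a block and leaving out each library. The members, lists and comparisons were chosen with earlier results of these data known. The rule for names takes all members, and of each other list up to 3 called genes per comparison in order of absolute change, with fewer named in places; likeness was computed for p53 and the 2 members with the highest mean. Also named are rpr, skl, grim and PEK, and Wrinkled in males, chosen after their values were seen.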

Additional observations from a re-analysis of the deposited data

Results flagged for a closer look

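In groups of 4 libraries, 63 sets of values were examined for a single library far from the rest, and 5 were flagged. Chance flags about 1 in 20 where values scatter normally, which low values with zeros do not. In Stat92E RNAi they were the highest rad50 value at 0.7 M (0.0296 scaled FPKM, with the other 3 libraries at 0), the highest Gadd45 value at 0.15 M (0.418) and the lowest RnrL value at 0.15 M (0.0119). In FOXO RNAi at 0.7 M it was the highest RnrL value (0.133), and in controls at 0.7 M the lowest RnrS value (0.331). The rad50 flag was fixed by the zeros of the other libraries, and its value stands for an estimated 0.9 of a fragment.

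The effect of FOXO RNAi differed between 0.7 M and 0.15 M for p53 by 0.73 and for Xrp1 by 1.72 on the log2 scale, each called by limma's test of the difference itself. FOXO RNAi library 2 held the highest p53 and Xrp1 values at 0.7 M (0.638 and 8.22). It was the deepest of the 61 libraries, at an estimated 16.5 fragments per unit of scaled FPKM for a 1 kb transcript. It also had the most genes above 0 in its experiment (9098). The part of these traits in its values was not tested.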

How the results depend on the processing

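No value of the 10 genes called in the main fits changed direction under any alternative. Directions were not checked for genes of the other lists, nor for all values that were not called. Member calls numbered 13 in cg-GAL4 males, 1 in cg-GAL4 females, 3 in r4-GAL4 w1118 females and 12 in r4-GAL4 60100 females. When the test was limited to means of 1 or more they were 3, 0, 0 and 5, since members below that mean are not tested there. With a pseudocount of 1 the w1118 count went to 0. Leaving out each library gave 9 to 15 calls in cg-GAL4 males, 0 to 1 in cg-GAL4 females, 2 to 3 in w1118 females and 9 to 15 in 60100 females. Of the values of single genes with a library left out, 779 kept their side of the threshold, 64 lost a call and 16 gained one. Over all genes, counts of calls moved by more than 1.5 times with a pseudocount of 1 for the p53 RNAi difference (5 to 10) and Stat92E RNAi at 0.15 M (354 to 586), and after rescaling by the median ratio for the same 2 (5 to 3 and 354 to 144). Limiting the test to means of 1 or more moved 14 of 23. In the 60100 cross these were diet in controls (2540 to 773), FOXO RNAi (2498 to 966), p53 RNAi (2539 to 934) and Stat92E RNAi (1764 to 900), the FOXO and Stat92E differences (671 to 337 and 14 to 6), FOXO RNAi at both diets (749 to 431 and 1226 to 700), and p53 and Stat92E RNAi at 0.15 M (73 to 43 and 354 to 76). The others were cg-GAL4 females (1431 to 853) and w1118 females at 0.3 M, 0.7 M and 1.0 M (386 to 150, 777 to 328 and 829 to 379). Leaving out 1 library moved the count in 89 of 517 fits, so the shares of all genes called are themselves uncertain: p53 RNAi ranged from 23 to 181 calls at 0.15 M and from 112 to 858 at 0.7 M, Stat92E RNAi from 13 to 748 and from 88 to 805, and FOXO RNAi at 0.15 M from 361 to 1682. For Tfb1 RNAi against control no library moved it by that much (942 to 1372 at 0.15 M and 596 to 1132 at 1.0 M). Rescaling also shifted the balance of higher and lower calls by over 10 points of percent in the 60100 cross: diet in controls went from 732 higher and 1808 lower to 1001 and 1284, in FOXO RNAi from 961 and 1537 to 1195 and 1018, and in p53 RNAi from 791 and 1748 to 1087 and 1334. FOXO RNAi went from 266 and 483 to 328 and 313 at 0.15 M and from 640 and 586 to 781 and 377 at 0.7 M, p53 RNAi at 0.7 M from 117 and 212 to 149 and 178, Stat92E RNAi at 0.15 M from 72 and 282 to 51 and 93, and the p53 RNAi difference from 3 and 2 to 1 and 2.

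Libraries with the same replicate number deviated together in some pairs only (correlations of -0.17 to 0.35). The highest, 0.33 and 0.35, were in males, and those of the females ran from -0.17 to 0.14. Whether the numbers mark pairs of libraries, in males above all, is therefore not known. With the replicate block, member calls were 14 in males (mre11 at 1.0 M gained, adjusted p = 0.027), 0 in cg-GAL4 females and 3 in w1118 females; Tfb1 at 0.15 M passed the threshold (adjusted p = 0.022). The 60100 columns carry no shared numbers, so no block was fitted there. Over all genes the block took the Tfb1 difference from 177 calls to 97 and cg-GAL4 females from 1431 to 772. Depth limits most of these genes, whose values often rest on an estimated 1 to 5 fragments.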
